A study of Mus musculus with 21 samples.

Results

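Brdt, Brd2 and Brd3 are genes of the bromodomain and extra-terminal (BET) family. They were selected by name, with the level of each gene over the stages already known from these data, so those levels are described here without a test. A gene was given every long-read transcript whose exons overlapped its GENCODE vM21 exons on the same strand, and its value was the sum of their TPM, a measure of abundance per length that is scaled to the same total in every library. In this way 18333 of the 22612 merged transcripts were given to 10917 genes, and the 3 BET genes took 6 of them, with 3 for Brdt, 2 for Brd3 and 1 for Brd2.

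The study measured RNA of mouse gametes and preimplantation embryos. Sperm came from the epididymis of DBA/2J males by the sample labels, which the protocol text calls DBA/2N. Oocytes came from C57/BL6J females, and embryos from crosses of DBA/2J males with C57/BL6J females. The females were 3 to 5 weeks old and superovulated with gonadotropins. Oocytes were taken at 20 h after hCG (human chorionic gonadotropin), 1-cell embryos at 24 to 26 h, 2-cell embryos at 46 to 48 h, 4-cell embryos at 54 to 58 h, 8-cell embryos at 68 to 70 h and blastocysts at 94 to 96 h, the embryos after culture in KSOM medium. Each of the 7 stages had 2 short-read libraries and 1 long-read library that pooled both batches. All were made from pooled cells or embryos by Smart-seq2, which copies polyadenylated RNA from an oligo(dT) primer and amplifies the cDNA. No label says that the 2 batches of a stage came from separate animals, so the tests measure only the spread between these libraries. The files hold TPM and no counts, and how many reads stand behind a value is unknown.

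BET proteins read acetylated lysines on histone tails through a tandem pair of bromodomains, and their C-terminal extra-terminal (ET) domain recruits other chromatin proteins. Brd2 and Brd3 are made in most tissues. Brdt is best known from the testis, for its role in male meiosis and in the compaction of spermatid chromatin.

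The Brdt models turned on a splice choice at exon 7, and the sequences on either side of it are shown for that reason. Brdt (ENSMUSG00000029279.15) lies on the plus strand at chr5:107331159-107387058 (mm10, the GRCm38 assembly). Its long annotated transcript Brdt-201 has 19 exons and 956 codons, and its short annotated transcript Brdt-202 has 7 exons and 326 codons. The 2 share their first 322 codons, up to the end of exon 7 at base 107350426. In the short form exon 7 runs on past that splice donor, as in chr5:107350391-107350441, through 12 more coding bases and a stop codon, which are in capitals in the first sequence. In the long form the same 36 coding bases are joined to exon 8, whose first 36 bases are in capitals in the second. Both were read from the GENCODE vM21 transcripts.
Brdt short form: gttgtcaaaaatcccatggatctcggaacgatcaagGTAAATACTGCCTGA
Brdt long form: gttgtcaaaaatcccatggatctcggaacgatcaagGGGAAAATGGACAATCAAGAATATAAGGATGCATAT

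The first 200 residues of the translated long form were aligned locally with the rest, and only the best-scoring alignment was kept. It was a repeat that ran from residue 1 to 135 and again from 240 to 378. In it 47 of 135 aligned residues were identical (34.8%). Brd2-202 and Brd3-202 gave such a repeat too, at residues 276 to 445 and 284 to 460 for the second copy. The tandem bromodomains of the family are the known repeat of these proteins. The short form of Brdt stops at codon 326, inside the second copy of its repeat, and holds none of the coding sequence that follows.

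The long-read starts of Brdt lay close together. Of its 12 long-read transcripts over all stages, 10 began at base 107331192, 2 bases before the start that RefSeq gives, and 1 each at 107331189 and 107331142. The 120 bases before the first annotated base, at chr5:107331039-107331158 in the RefSeq promoter table (GRCm38.p6), are shown with 3 motifs in capitals, each searched on both strands.
Brdt promoter: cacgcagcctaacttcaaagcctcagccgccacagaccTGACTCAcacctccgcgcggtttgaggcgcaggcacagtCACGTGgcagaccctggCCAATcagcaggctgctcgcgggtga
TGACTCA, the letters of an AP-1 element, was in 5.20% of 32851 RefSeq promoter windows. CACGTG, an E-box, was in 7.15% and CCAAT in 37.4%. These percentages are over whole windows, which are longer than the stretch shown, so they are not its background rate. The 3 motifs were listed by hand, and the matches describe letters only.

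The libraries of a stage did not agree equally well. Over 10000 genes that reached a TPM of 1 in 2 or more of the 12 libraries from oocyte to blastocyst, Pearson's r of log2(TPM + 1) between the 2 libraries was 0.679 at the 2-cell stage and 0.771 in sperm, against 0.879 to 0.979 at the other stages. The 2-cell libraries also differed in the markers of their own stage: 4 of 4 listed 2-cell genes were found, with a summed TPM of 14.3 in replicate 1 and 288 in replicate 2, and the 6 oocyte markers summed to 111 and 1294 there. The sperm markers (6 of 6 found) summed to 14026 and 20770 TPM in the sperm libraries and to at most 17.0 elsewhere. Leukocyte markers (5 of 5) summed to 10238 and 1996 TPM in the sperm libraries, none of them at 0 there, and to at most 30.7 in any other library. The 2 epididymal markers with a transcript, of 5 listed, summed to 2014 and 338 TPM in the sperm libraries. Markers of male meiotic and spermatid cells, the cells in which Brdt is best known (9 of 11 found), summed to 914 and 694 TPM in sperm and 318 and 380 at the 2-cell stage, where Sycp1 and Sycp3 of the synaptonemal complex made up most of the sum, and to 32.6 to 192 in the other libraries. Of the cumulus cell markers 1 of 7 had a transcript, and it was at most 0.481 TPM from oocyte to blastocyst. The part of other cell types in the sperm values below was not tested.

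Brdt was the most abundant of the 3 genes by TPM from oocyte to 2-cell, and its level went down from the 1-cell stage onwards. The gene TPM was 3517 and 1361 in the 2 oocyte libraries, which placed Brdt at rank 41 and rank 106 of all 10917 genes. It was 1033 and 2528 at the 1-cell stage, and these libraries overlapped those of the oocyte. It was 507 and 361 at the 2-cell stage and 87.8 and 65.7 at the 4-cell stage. It was 8.41 and 8.74 at the 8-cell stage and 3.07 and 1.06 in blastocysts. The 2 sperm libraries had 26.7 and 14.6 TPM. In a bulk library fewer cells that hold an RNA and less of that RNA per cell cannot be told apart, and TPM is a share of all RNA in the library.

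The order of the Brdt means was oocyte with 2439 ± 1524 TPM (SD, n = 2), 1-cell with 1780 ± 1057, 2-cell with 434 ± 103, 4-cell with 76.7 ± 15.6, sperm with 20.7 ± 8.54, 8-cell with 8.58 ± 0.229 and blastocyst with 2.07 ± 1.42. Apart from oocyte and 1-cell, no 2 neighbours in this order overlapped. On the log2(TPM + 1) scale the difference between neighbouring stages was −0.44 ± 1.33 from oocyte to 1-cell (later minus earlier stage, with the SD of the difference from the spread of both stages). The next step, to the 2-cell stage, was −1.92 ± 0.98, the step to the 4-cell stage −2.48 ± 0.45, the step to the 8-cell stage −3.01 ± 0.29 and the step to the blastocyst −1.72 ± 0.69. Over all 10000 genes the median differences in the same order were 0.23, 0.72, 0.04, −0.34 and −0.14, so each Brdt difference was below the median. The mean TPM was 1181 times as high in oocytes as in blastocysts and 118 times as high in oocytes as in sperm. Both ratios depended on single libraries: without oocyte replicate 1 they were 659 and 65.8, and without blastocyst replicate 1 the first was 2293.

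**Figure D1:**
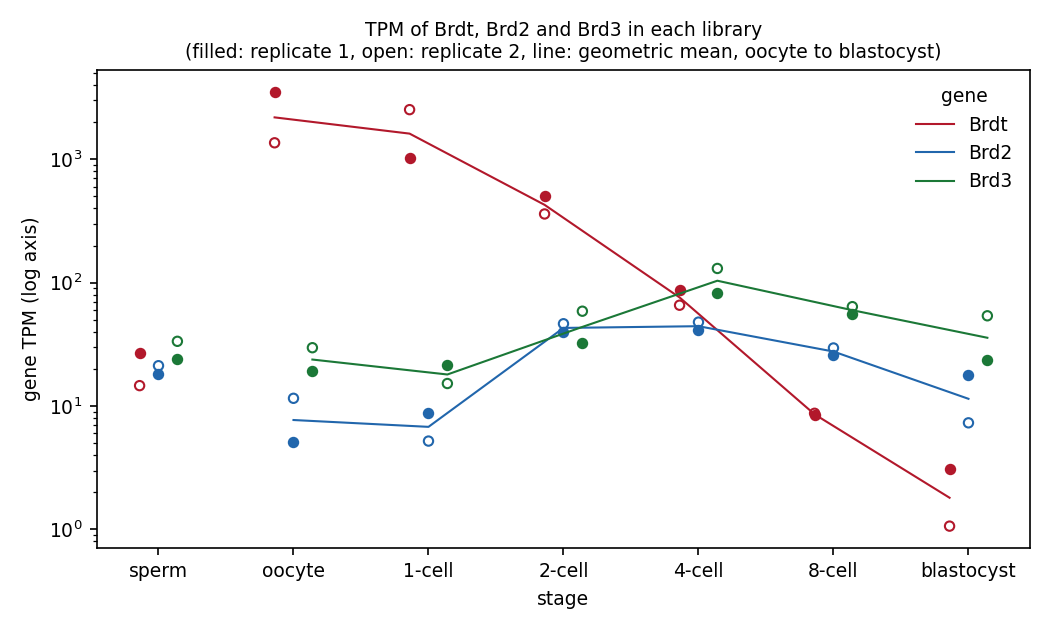
Gene TPM (log axis) of Brdt, Brd2 and Brd3 in each of the 14 short-read libraries, by stage, with replicate 1 filled, replicate 2 open and a line through the geometric mean from oocyte to blastocyst. Brdt goes from 3517 and 1361 TPM in oocytes to 3.07 and 1.06 in blastocysts, and Brd2 and Brd3 are highest at the 4-cell stage by mean.

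Brd2 (ENSMUSG00000024335.20, minus strand, chr17:34112023-34122634), which binds acetylated histone H4, was low in oocytes and 1-cell embryos and higher from the 2-cell stage. Its gene TPM was 5.14 and 11.6 in oocytes, 8.84 and 5.20 at the 1-cell stage and 39.8 and 46.5 at the 2-cell stage. It was 41.1 and 47.9 at the 4-cell stage, 25.9 and 29.6 in 8-cell embryos and 17.9 and 7.31 in blastocysts. The sperm libraries had 18.3 and 21.2. The 2-cell and 4-cell libraries overlapped, and so did those of blastocyst, oocyte and 1-cell, while 8-cell and sperm each stood apart from their neighbours in the order of the means. From 1-cell to 2-cell the log2 difference was 2.49 ± 0.50, and the mean TPM was 6.14 times as high at the 2-cell stage. From 4-cell to 8-cell it was −0.66 ± 0.20, and from 8-cell to blastocyst −1.19 ± 0.85.

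Brd3 (ENSMUSG00000026918.16, minus strand, chr2:27445579-27507662), a further reader of acetylated histones and of acetylated GATA1, had its highest mean at the 4-cell stage. Its gene TPM was 19.1 and 29.7 in oocytes, 21.3 and 15.2 at the 1-cell stage and 32.7 and 58.7 at the 2-cell stage. It was 82.5 and 130 at the 4-cell stage, 56.0 and 63.9 in 8-cell embryos and 23.7 and 53.9 in blastocysts. The sperm libraries had 23.9 and 33.5. The 4-cell libraries stood above all others, and every pair of neighbours below them in the order of the means overlapped. The log2 difference was 1.24 ± 0.67 from 1-cell to 2-cell and 1.22 ± 0.75 in the next step to the 4-cell stage, then −0.78 ± 0.48 to the 8-cell stage and −0.72 ± 0.82 to the blastocyst.

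Libraries that do not overlap are common with 2 against 2. From 1-cell to 2-cell Brdt was lower in both later libraries, as were 15.4% of the 10000 genes, and Brd2 and Brd3 were higher, as were 42.7%. From 2-cell to 4-cell Brdt was lower beside 22.1% of genes, and Brd3 was higher beside 30.7%. All 3 genes had lower values in each 8-cell library than in either 4-cell library, beside 47.3% of genes. Each blastocyst library was in turn below either 8-cell library for all 3, beside 28.1%. In sperm Brdt was below both oocyte libraries, beside 28.2% of genes, and Brd2 above them, beside 45.8%. Because the 3 genes were selected with these levels known, nothing is read from these counts.

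The makeup of the 3 genes by TPM was turned over between oocyte and 8-cell. Of their summed TPM, Brdt had 99.3% and 97.1% in the oocyte libraries and 97.2% and 99.2% at the 1-cell stage. It had 87.5% and 77.4% at the 2-cell stage, 41.5% and 26.9% in 4-cell embryos and 9.31% and 8.55% at the 8-cell stage. In the same 8-cell libraries Brd3 had 62.0% and 62.5%, and Brd2 28.7% and 28.9%. The blastocyst libraries differed from each other, with 53.1% and 86.6% for Brd3 and 40.1% and 11.7% for Brd2. The summed TPM itself was 3541 and 1403 in oocytes, 90.3 and 102 at the 8-cell stage and 44.7 and 62.3 in blastocysts. In sperm no gene dominated, with shares of 21.1% to 48.3% over the 3 genes and both libraries.

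**Figure D2:**
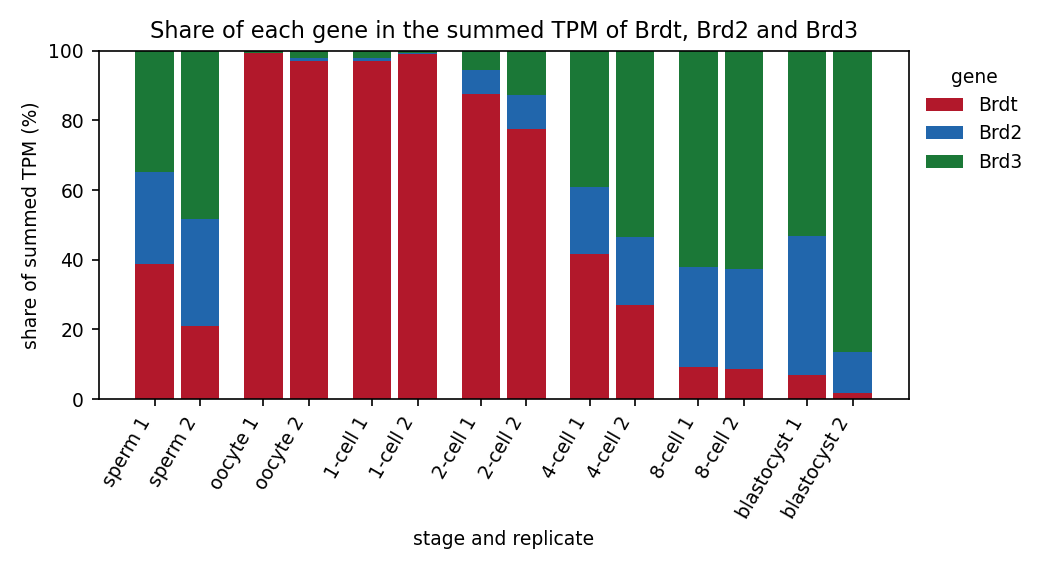
Share of Brdt, Brd2 and Brd3 in the summed TPM of the 3 genes (%), 1 bar for each library. Brdt fills 77.4% or more of every bar from oocyte to 2-cell and 9.31% or less at the 8-cell stage and in blastocysts, where Brd3 has the largest share.

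Over the merged transcripts, most Brdt TPM belonged to the short form in every library but 8-cell replicate 2. The merged transcripts held 2 models with 7 exons and 1 with 10 exons, and all 3 begin within the same first exon. TCONS_00015517 has the introns of Brdt-202 and ends at base 107350745, 319 bases past the donor of exon 7. TCONS_00015518 differs from it in the first exon, which ends at base 107331362 in place of 107331307 and is 55 bases longer. That exon lies before the start codon, which is in exon 3 at base 107342071. TCONS_00015516 holds the first 10 exons of Brdt-201 and ends with exon 10 at base 107359009, so that no merged model of Brdt holds exons 11 to 19, and reads from those exons added nothing to its TPM.

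The 7-exon model with the shorter first exon had 2587 and 1058 TPM in oocytes, 735 and 1887 at the 1-cell stage, 384 and 273 in 2-cell embryos and 73.3 and 44.2 at the 4-cell stage. It had 4.30 and 2.94 TPM at the 8-cell stage, 1.77 and 0.85 in blastocysts and 12.1 and 7.66 in sperm. This model was the highest of the 3 in every library but 8-cell replicate 2.
The 7-exon model with the longer first exon had 746 and 238 TPM in oocytes, 183 and 461 at the 1-cell stage and 86.2 and 61.6 at the 2-cell stage, 8.53 and 2.70 in sperm, and 9.51 TPM or less in every library after the 2-cell stage. From oocyte to 2-cell it made up 18.3% to 22.4% of the 7-exon TPM in every library.
The 10-exon model had 184 and 65.2 TPM in oocytes, 115 and 181 at the 1-cell stage, 36.6 and 26.4 in 2-cell embryos and 9.76 and 12.0 at the 4-cell stage. It had 3.31 and 4.65 TPM at the 8-cell stage, 1.07 and 0.21 in blastocysts and 6.08 and 4.29 in sperm.

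**Figure D3:**
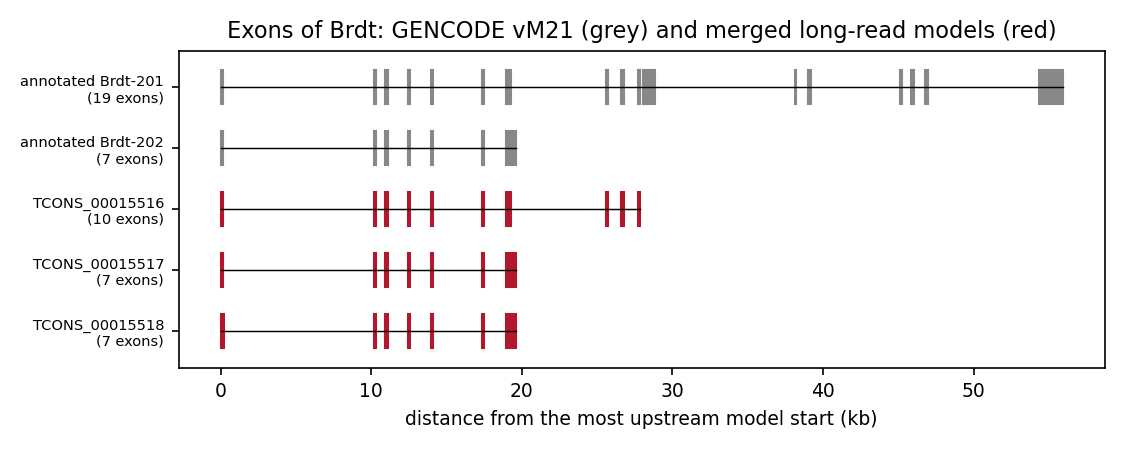
Exons (boxes) of the 2 annotated protein-coding Brdt transcripts and of the 3 merged long-read models, by distance in kb from the most upstream model start. The 7-exon models end with the extended exon 7, and the 10-exon model stops 9 exons before the end of Brdt-201.

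The 10-exon share of Brdt TPM was 5.23% and 4.79% in the oocyte libraries, 11.2% and 7.15% at the 1-cell stage and 7.23% and 7.32% at the 2-cell stage. It was 11.1% and 18.2% at the 4-cell stage, 39.4% and 53.2% in 8-cell embryos and 34.9% and 19.9% in blastocysts. In sperm it was 22.7% and 29.3%. The 8-cell, blastocyst and sperm libraries all lay above those from oocyte to 4-cell. At the 8-cell stage and in blastocysts the model shares rest on Brdt levels under 9 TPM.

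The share of a transcript within its gene had not been used to choose the genes. It was tested between neighbouring stages with limma. The value tested was the log2 ratio of a transcript's TPM to the rest of its gene's TPM, each plus 1. The added 1 makes this ratio depend on the level of the gene as well as on the share. The test was therefore not independent of the levels known when the genes were selected. A share was called at an adjusted p (Benjamini-Hochberg over all 11276 transcripts) under 0.05 with a change of mean share over 10 percentage points. None of the 5 transcripts of Brdt and Brd3 was called in any of the 5 transitions, and 3 of the 25 tests had an unadjusted p under 0.05. These tests are not independent, because the 2 Brd3 transcripts give the same ratio with opposite sign and the Brdt shares sum to the whole gene. Over all transcripts 0.00887% were called between oocyte and 1-cell, 11.2% up to the 2-cell stage, 0.133% up to the 4-cell stage, 0.204% up to the 8-cell stage and 0.142% in the last step to the blastocyst. The lowest adjusted p of the members was 0.0949, for the 10-exon Brdt model from 4-cell to 8-cell. Its share was 31.6 percentage points higher at the 8-cell stage, and its log2 ratio was higher by 2.30 ± 0.51 (SE). The 7-exon model with the shorter first exon had a share 33.0 percentage points lower (adjusted p = 0.155). With a spread estimated for each stage these 2 were called, at adjusted p = 0.0051 and 0.0175, and over all alternatives the adjusted p of the first ran from 0.0051 to 0.572 and that of the second from 0.0175 to 0.733. The ratio and the share did not always move together where Brdt TPM fell. For the 7-exon model with the longer first exon, the log2 ratio rose by 1.03 from 4-cell to 8-cell and the share by 1.37 percentage points. From 8-cell to blastocyst its log2 ratio rose by 0.78, while its mean share was 11.3% and then 3.70%. The part of the gene level in the ratio changes of Brdt was not tested. All transcripts of Brdt, and those of Brd3, start within 100 bases of each other, so each gene has 1 first exon group and no test between first exons was possible.

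**Figure D4:**
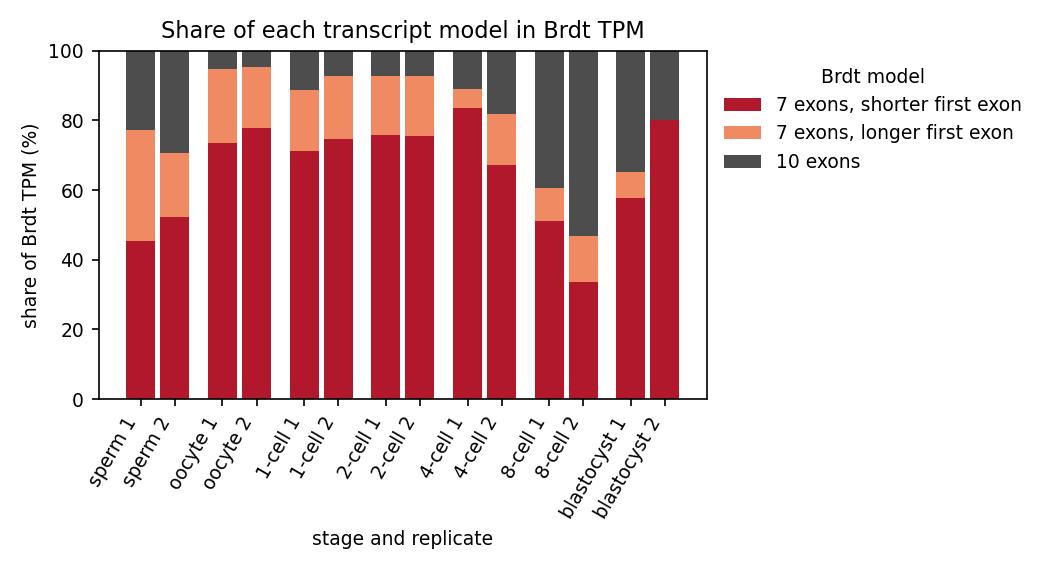
Share of each merged model in the Brdt TPM (%), 1 bar for each library. The 7-exon models hold 81.8% or more of every bar from oocyte to 4-cell, and the 10-exon model reaches 39.4% and 53.2% at the 8-cell stage.

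The 2 merged models of Brd3 did not divide its TPM in the same way in libraries of 1 stage. The 12-exon model TCONS_00011870 has the introns of Brd3-202 and had a TPM above 9 in every library, with 82.5 and 64.9 in 4-cell embryos and 37.8 and 63.9 in 8-cell embryos. The 8-exon model TCONS_00011869 was at 37.0 TPM in 2-cell replicate 2 and 0 in replicate 1, at 65.5 in 4-cell replicate 2 and 0 in replicate 1, and at 18.2 in 8-cell replicate 1 and 0 in replicate 2. It was at 9.68 in oocyte replicate 1, at 6.05 and 0.17 in sperm, and listed at 0 in the remaining libraries. It joins exon 1 to exon 6 by an intron at chr2:27459839-27475583 that vM21 does not hold, and so lacks exons 2 to 5, the one with the annotated start codon among them. The junction lies 7 bases inside exon 1 and 10 bases before the annotated start of exon 6. Only 1 stage transcript had that junction, a 2-cell long-read transcript of 5 exons and 807 bases with 18.5 and 13.4 TPM over the transcripts of its own stage. Both Brd3 models also touched the annotated microRNA gene Mir7578.

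The single model of Brd2, TCONS_00009164, has 12 exons, 2980 bases and the introns of Brd2-202. No long-read transcript of any stage held the whole intron chain of this model or of either Brd3 model. Brd2 had 10 long-read transcripts in all, of which the longest had 9 exons and 1667 bases and came from sperm, and it had none in blastocysts. Brd3 had 8, of at most 9 exons, in sperm and from 2-cell to 8-cell, and none in oocytes, 1-cell embryos or blastocysts. For Brdt, 4 were found in oocytes, 4 at the 1-cell stage, 3 at the 2-cell stage, 1 at the 4-cell stage and none in sperm, at the 8-cell stage or in blastocysts. The 10-exon chain was found in the oocyte, 1-cell and 2-cell pools, the chain with the longer first exon in the same 3, and the chain of Brdt-202 in those and at the 4-cell stage.

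The ends of these long-read transcripts fell into separate kinds. For Brdt, 7 of 12 ended in the extended exon 7 within a span of 9 bases, from 107350738 to 107350746, in 4 stages. The other 5 ended inside the coding sequence of Brdt-201, at 5 different bases. For Brd3, 5 of 8 ended inside its coding sequence, 4 of them at base 27453019 in exon 9, in the sperm, 2-cell and 4-cell pools. The 3 others ended after the stop codon. At base 27447839, where both merged Brd3 models also end, 24 A followed in the next 30 bases. After the ends at 27448375 and 27448376 there were 5 and 4 A. For Brd2, 4 of 10 ended in the coding sequence of exon 9, 2 at base 34113770 and 2 at base 34113763. The 6 others ended between bases 34112024 and 34112052, near the annotated end of the gene at base 34112023. How many A follow these 6 ends, or the 7 Brdt ends in the extended exon 7, was not examined.

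The sequence at 1 coding end of each gene is shown to give the A content after it. That was 22 A in the next 30 bases for Brd2, 20 for Brd3 and 13 for Brdt. The ends shown for Brd2 and Brd3 are shared by 2 and 4 long-read transcripts, whereas that of Brdt is the end of 1 transcript of the 2-cell pool, the farthest along its coding sequence. The first 30 bases are the last of the long-read transcript, and the 30 capitals are what follows in the annotated transcript (GENCODE vM21), with chr5:107358980-107359222 for Brdt, which spans the intron between exons 10 and 11, chr17:34113740-34113799 for Brd2 and chr2:27452989-27453048 for Brd3.
Brdt: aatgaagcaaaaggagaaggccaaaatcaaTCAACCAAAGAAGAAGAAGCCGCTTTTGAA
Brd2: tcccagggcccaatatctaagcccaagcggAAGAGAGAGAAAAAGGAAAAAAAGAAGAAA
Brd3: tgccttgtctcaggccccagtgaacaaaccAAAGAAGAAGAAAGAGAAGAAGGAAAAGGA

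The 30 bases after the coding ends held 20 to 22 A in Brd2, 20 in Brd3 and 13 to 17 in Brdt. Of the 14 coding ends of the 3 genes, 12 had at least 15 A in the next 30 bases (85.7%), and the 2 others, both of Brdt and with the end shown among them, had 13. At least 15 A followed 68.9% of 6590 coding ends of long-read transcripts of other genes and were held by 1.90% of all 30-base windows in the longest coding sequence of each protein-coding gene. The share for the 3 genes was thus near that of other genes with such ends. Within the coding sequences of the 3 genes, at least 15 A were held by 9.05% of 30-base windows in Brdt-201, 6.33% in Brd3-202 and 2.11% in Brd2-202. The ends shown lie 486 codons into the 726 of Brd3, 499 into the 752 of Brd2 and 485 into the 956 of Brdt, there at the end of exon 10. Some Brd2 and Brd3 transcripts with these ends start after the start codon or skip it, so they hold fewer codons. The oligo(dT) primer of the cDNA method can pair with runs of A, and its part in these ends was not tested.

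The authors also gave TPM over the long-read transcripts of each library's own stage. On that scale Brdt had 2566 and 1177 TPM in oocytes, 973 and 2159 at the 1-cell stage, 476 and 335 in 2-cell embryos and 75.4 and 56.7 at the 4-cell stage. These values keep the order of the stages by mean. A 5-exon transcript of 688 bases held 449 and 787 of the 1-cell TPM. In oocytes a 7-exon transcript of 1040 bases held 741 and 107 TPM. Both end before the donor of exon 7, so on this scale their TPM cannot be given to the short or the long form. On the same scale Brd3 had 97.9 and 152 TPM at the 2-cell stage, 195 and 278 in 4-cell embryos and 106 and 129 at the 8-cell stage. Brd2, whose stage transcripts are short pieces, had 26.6 and 90.0 TPM at the 2-cell stage, 218 and 199 in 4-cell embryos and 68.7 and 69.7 at the 8-cell stage. Between 2-cell and 4-cell the Brd2 difference thus depended on the scale, with 2.06 on this one and 0.05 over the merged transcripts.

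The 5 genes with the most similar pattern to each member were found by Pearson's r of log2(TPM + 1) over the 14 libraries, which share stages, among 10734 genes. For Brdt they were Iqgap2 (r = 0.974), a scaffold protein of the cytoskeleton, Nlrp4a (0.971), of the oocyte NLRP family, Umodl1 (0.969), Parp12 (0.969), an ADP-ribosyltransferase, and Pkd2l2 (0.968). Nlrp4a, for example, had a mean TPM of 1565 in oocytes, 120 at the 2-cell stage and 1.01 in blastocysts. For Brd2 they were the predicted genes Gm10343 (0.948), Gm12614 (0.938) and Gm42067 (0.932), with Bid (0.936), a pro-apoptotic protein, and Tial1 (0.933), an RNA-binding protein. For Brd3 they were Bex1 (0.901), Leng1 (0.899), Card14 (0.896), Ripor3 (0.893) and Snapc3 (0.889), a subunit of the complex for small nuclear RNA transcription. Among the members r was 0.74 between Brd2 and Brd3, −0.30 between Brdt and Brd2 and −0.43 between Brdt and Brd3.

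The genes around the family were taken from 6 lists with 82 genes, of which 62 had a transcript and were tested: other bromodomain genes, YEATS-domain readers, acetyltransferases without a bromodomain, deacetylases, P-TEFb with its regulators and elongation factors, and partners of the ET domain. Their log2(TPM + 1) was fitted with limma on the 12 oocyte and embryo libraries and called at an adjusted p (Benjamini-Hochberg over 10000 genes) under 0.05. From 1-cell to 2-cell, where Brd2 and Brd3 were higher and Brdt lower, 13 of the 62 rose and 1 fell, beside 26.1% and 6.2% of all genes, and 22 had an unadjusted p under 0.05. The median change was 0.95 over the 62 and 0.72 over all genes. Among the 12 genes around P-TEFb, the kinase that BET proteins engage, 4 rose: Hexim1, Cdk9, Ell2 and Ell3. Of 28 other bromodomain genes 5 rose: the acetyltransferases Ep300 and Kat2a, the remodeller subunit Baz1a, the corepressor Trim28 and Sp140. Of 12 deacetylases Hdac1, Hdac6 and Sirt1 rose and Sirt4 fell. Of 6 acetyltransferases without a bromodomain Kat6a rose, and none of the 2 YEATS readers or 2 ET partners was called.

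Hexim1, an inhibitor of P-TEFb, had 1.05 and 0.027 TPM at the 1-cell stage and 16.9 and 49.1 at the 2-cell stage, a log2 change of 4.37 ± 0.73 (SE). Its adjusted p was 0.00066. Cdk9, the kinase of P-TEFb, had 3.25 and 7.60 TPM and then 162 and 60.8, with a change of 4.05 ± 0.74 (adjusted p = 0.0012). Hdac1, a class I deacetylase, had 3.01 and 0.89 TPM and then 27.8 and 52.3 (change 3.83, adjusted p = 0.0017). Sirt4, a mitochondrial sirtuin and the gene that fell, had 83.2 and 56.2 TPM and then 14.6 and 10.8 (change −2.36, adjusted p = 0.020). The count of 14 was not stable. It was 2 in a fit of the 4 libraries alone and 4 with a spread estimated for each stage, and it was 8 without 1-cell replicate 1 and 5 without 1-cell replicate 2.

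In the other transitions few of the 62 were called. From oocyte to 1-cell none was, beside 0.33% of all genes higher and 0.05% lower, and 3 had an unadjusted p under 0.05. From 2-cell to 4-cell none was, beside 1.58% and 1.82%, with 9 at an unadjusted p under 0.05. The count was 2 without 2-cell replicate 1, 7 without 2-cell replicate 2 and 2 without either blastocyst library, and 4 with quantile normalization. From 4-cell to 8-cell none was, beside 0.77% and 0.9%, with 7 at an unadjusted p under 0.05. The median change of the 62 there was −0.78, against −0.34 over all genes. That count was 19 in the fit of the 4 libraries alone, 26 with a spread estimated for each stage and 2 without either 2-cell library. From 8-cell to blastocyst 1 fell, beside 1.49% of all genes lower and 1.51% higher, and 8 had an unadjusted p under 0.05. This was Sp110, a nuclear body protein, with 131 and 107 TPM and then 13.6 and 1.64 (change −4.27 ± 0.81, adjusted p = 0.011). It was not called without either 8-cell library, without blastocyst replicate 2 or in the fit of the 4 libraries alone.

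**Figure D5:**
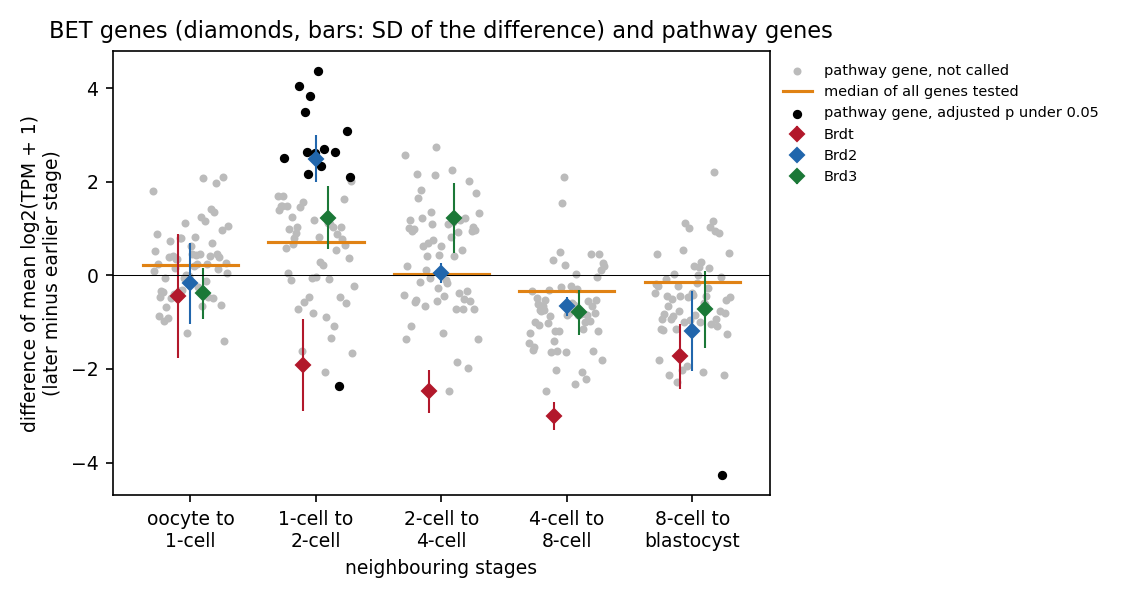
Difference of mean log2(TPM + 1), later minus earlier stage, for the 62 pathway genes (grey, black where the adjusted p was under 0.05), Brdt, Brd2 and Brd3 (diamonds with the SD of the difference, untested), and the median of all 10000 genes (line). Brdt lies below the median in all 5 transitions, and 14 pathway genes are black from 1-cell to 2-cell.

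In sperm against oocytes 10 of the 62 pathway genes were higher and 9 lower, beside 36.2% and 17.4% of 10735 genes, and the median difference was −0.08 over the 62 and 0.90 over all genes. The fit used all 14 libraries. Higher in sperm were Hexim1 with a log2 difference of 4.07, Sp100, a nuclear body protein, with 4.06 and Hdac5, a class IIa deacetylase, with 3.83. Lower were Mllt3, a YEATS reader of the super elongation complex, with −4.50, Cecr2, a bromodomain subunit of a chromatin remodeller, with −3.93, and Hdac2 with −3.47, and the adjusted p of these 6 was 0.0026 or less. The leukocyte markers of the sperm libraries, at 10238 and 1996 TPM, stand beside all of these differences, and their part in them was not tested.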

How the data were processed

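Long-read transcripts of 7 stages (1 pool each) and 14 short-read libraries (2 per stage) were analysed, grouped by their titles. The title also gave the replicate number of the 8-cell libraries, which other labels give the other way round. The authors aligned reads to mm10, collapsed and merged the long-read transcripts, and deposited TPM values from salmon over the merged transcripts and over those of the library's own stage. TPM keeps no depth, so no count test was run. The library kit does not mark strand, so a gene and an antisense partner cannot be told apart. No column of another series was present.

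Transcripts were assigned to GENCODE vM21 genes (GRCm38, the assembly of mm10) by same-strand exon overlap. The 3 genes, the pathway lists and the tests were chosen with earlier results of these data known. Named pathway genes are, per comparison, the 3 largest rises and the 3 largest falls among called genes whose libraries did not overlap; other list members named were chosen after their values were seen. 1 gene set for comparison at the start is not reported here.

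Gene levels were tested on log2(TPM + 1) by limma's moderated linear models, in which eBayes used a trend of the variance and the stage was the only term, and Benjamini-Hochberg adjustment per comparison. Genes needed a TPM of at least 1 in 2 libraries, and genes in the share test a TPM of at least 1 in 4 libraries. The pipeline was tested on simulated data. Alternatives were a pseudocount of 0.1, other filters, quantile normalization, the 4 libraries of a comparison alone, a replicate block, a spread per stage (arrayWeights), transcripts sharing an intron with the gene or lying in its exons, own-stage TPM and each library left out. Fold changes on the log2(TPM + 1) scale understate changes of low genes. The tools were Python 3.11.15, pandas 2.3.3, numpy 2.4.6, Biopython 1.88, R 4.3.3 and limma 3.58.1.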

Additional observations from a re-analysis of the deposited data

How the results depend on the processing

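The direction of every member difference between neighbouring stages whose libraries did not overlap held under each alternative tried. The Brdt step from oocyte to 1-cell, whose libraries overlapped, changed sign under some. It was 0.10 with quantile normalization, 0.25 without oocyte replicate 1 and 0.21 without 1-cell replicate 1. Quantile normalization gave −3.28 for the Brdt step to the 4-cell stage and −2.66 for its step to the 8-cell stage. For Brd2 it gave 1.58 for the step to the 2-cell stage, −0.18 for the next step to the 4-cell stage, −0.26 for that to the 8-cell stage and 0.41 for sperm minus oocyte. With TPM over the stage's own transcripts Brd2 differed by 2.06 in the step to the 4-cell stage and by −1.58 in that to the 8-cell stage. The cause was not tested. Own-stage TPM gave no value where a stage had no long-read transcript of the gene, and first exon shares gave none at all.

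The count of pathway genes called from 1-cell to 2-cell was 2 in the 4 libraries alone, 4 with a spread per stage and 5 to 18 with a library left out. From 2-cell to 4-cell it was 4 with quantile normalization and 0 to 7 with a library left out. From 4-cell to 8-cell it was 19 in the 4 libraries alone, 26 with a spread per stage and 0 to 2 with a library left out. From 8-cell to blastocyst it was 0 in the 4 libraries alone and 0 to 2 with a library left out. The count of member transcripts with a called share from 4-cell to 8-cell was 2 with a spread per stage.

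The deviations of same-numbered libraries had no common sign over the stages. The correlation of replicate 2 minus replicate 1 between stages ran from −0.55 to 0.48, with 5 of 15 above 0.1. In single stage pairs it was large, with 0.48 between 8-cell and blastocyst and −0.55 between 2-cell and blastocyst. By their labels, same-numbered libraries share only a number. With the replicate block 13 pathway genes were called from 1-cell to 2-cell and 18 in sperm against oocyte, and no other count changed. Values are limited by 2 libraries a stage, TPM values that keep no depth and, for Brdt and Brd3, models that end short of the annotated genes.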
